A study of Mus musculus with 8 samples.

Results

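The potassium channel genes described here are the 92 entries of a hippocampal count table whose gene symbol is Kcn followed by letters and a closing number, out of 46078 entries in all. They comprise 77 genes of the pore-forming families and 15 genes of accessory subunits, and no symbol occurs more than once among them. The rule used only the symbol and no measured value. It leaves out Kcnq1ot1, an antisense RNA of the Kcnq1 locus, and Kcne5, which the table lists under the older symbol Kcne1l.

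Poly(A) RNA of the hippocampus was sequenced in 8 libraries, 4 from wild-type mice (WT) and 4 from mice that carry the Tg(Camk2a-cre)2Gsc transgene on a single allele (Cre+/-, a line also called CamiCre, here Cre). All mice were of strain C57BL/6J and 9 weeks old, and the labels name no floxed allele and no treatment in either group. In this line Camk2a regulatory DNA drives the Cre recombinase in excitatory forebrain neurons, so the comparison concerns the driver itself. Whether the 4 libraries of a group stand for 4 separate animals is not stated in the labels, so the p-values measure the spread between these libraries.

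Potassium channels let potassium ions leave or enter the cell along their gradient and thereby set the resting potential, shape the action potential and limit repetitive firing. Voltage-gated (Kv) channels open on depolarisation, inward rectifiers (Kir) and tandem-pore (K2P) channels carry resting conductance, and SK and BK channels open when calcium enters. In the hippocampus the A-type current of Kv4 channels controls back-propagation into dendrites, the M-current of Kv7 channels slows firing, and the astrocytic inward rectifier encoded by Kcnj10 clears extracellular potassium.

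All pore-forming subunits share a short stretch of the coding sequence, the signature of the selectivity filter, in which a serine or threonine codon, any codon, a glycine codon, a tyrosine or phenylalanine codon and a further glycine codon follow each other. It is shown because it is what the 77 pore genes have in common and the 15 accessory genes lack. Searched in frame on the coding strand of GENCODE M21 coding sequences (mouse build GRCm38), the signature was present in 77 of the 77 pore genes and in 0 of the 15 accessory genes, against 2.66% (575 of 21620) of all genes with a complete coding sequence. The lines below give, 5′ to 3′ on the coding strand, 39 bases inside a coding exon with the 15 bases of the signature in capitals. Each line stands for a subunit class or a kind of signature described here.
Kcna1: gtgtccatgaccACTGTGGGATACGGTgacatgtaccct
Kcnb2: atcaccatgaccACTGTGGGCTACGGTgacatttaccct
Kcnh3: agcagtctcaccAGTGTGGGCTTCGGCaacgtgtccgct
Kcnj11: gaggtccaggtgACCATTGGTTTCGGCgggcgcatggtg
Kcnk9: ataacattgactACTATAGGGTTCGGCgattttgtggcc
Kcnma1: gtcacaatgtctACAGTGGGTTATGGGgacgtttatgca

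The lines lie at chr6:126642216-126642254 (Kcna1, minus strand), chr1:15710034-15710072 (Kcnb2, plus) and chr15:99232917-99232955 (Kcnh3, plus). The others lie at chr7:46099484-46099522 (Kcnj11, minus), chr15:72512707-72512745 (Kcnk9, minus) and chr14:23528401-23528439 (Kcnma1, minus). At its 5′-most occurrence the fourth codon was tyrosine in 61 of the 77 pore genes and phenylalanine in 16. Every one of the 8 Kv10 to Kv12 genes had phenylalanine, as the Kcnh3 line shows, and so did Kcnj8 and Kcnj11, the pore subunits of ATP-sensitive channels. The remaining genes with phenylalanine were Kcnt1, Kcnt2, Kcnu1, Kcnk2, Kcnk12 and Kcnk13. The signature occurred more than once in 11 of the 14 K2P genes and in no other pore gene. Kcnk9 is shown with the later of its sites, which has the phenylalanine codon, while its earlier site has tyrosine.

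Library totals ran from 21339996 to 27826871 counts, and potassium channel genes took 0.588% to 0.613% of them. Syt2, the gene that the series title names as overexpressed in this line, had 35.4 ± 4.10 CPM (SD, n = 4) in WT and 176 ± 12.2 CPM (SD, n = 4) in Cre. CPM are counts per 1000000 of the normalised library. Markers of hippocampal neurons, such as Prox1, Wfs1 and Neurod6, were all measured, with a summed level of 2751.2 to 2948.2 CPM in WT and 2616.5 to 2907.4 CPM in Cre. Most of that sum was Slc17a7 (1688 ± 90.2 CPM in WT), so it hides the spread of single markers. Wfs1 ran from 117 to 167 CPM in WT and from 89.4 to 178 in Cre. Prox1 ran from 97.6 to 114 CPM in WT and from 94.8 to 136 in Cre, and Neurod6 from 167 to 197 and from 167 to 199. WT replicate 1 stood apart by markers of the choroid plexus and Cre replicate 1 by markers of glia. Some results they touch, such as Kcnj10 and the count of genes below 0, are also given without them.

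Of the 92 genes, 75 had enough counts to be tested and 17 did not. Kcnj1, an inward rectifier of the kidney, had 0 counts in every library, and a count of 0 allows up to 0.107 to 0.142 CPM there, the level of 3 counts, for counting error only. A total of 15 of the untested genes had under 100 counts over all 8 libraries, namely Kcnj1, Kcna7, Kcna10, Kcnv2, Kcnq1, Kcne1, Kcne3, Kcnj15, Kcnk5, Kcnk7, Kcnk15, Kcnk16, Kcnk18, Kcnn4 and Kcnmb3. The other untested genes, Kcnj13 and Kcne2, had nearly all of their counts in WT replicate 1, with values given beside the KCNE genes. At the upper end, 53 of the 92 genes averaged at least 10 CPM and 19 at least 100 CPM.

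Levels were compared between genes as CPM per kilobase of exon, using the union of the annotated exons. Kcnab2, the beta subunit that docks to Kv1 channels, was the highest, at 164 ± 7.03 CPM per kb in WT and 160 ± 7.91 in Cre (SD, n = 4 each), and made up 16.1% of the summed level of all 92 genes. Kcnip2, a calcium-binding subunit of Kv4 channels, followed at 58.8 CPM per kb over the 8 libraries, then Kcna1 at 46.1 and Kcnj4 at 43.0. Kcnk1 (34.2), Kcnj3 (33.8), Kcnj10 (32.2) and Kcnd2 (29.3) were also among the 10 highest, which together held 52.2% of the summed level. The ranges over the 8 libraries did not overlap between Kcnab2 and Kcnip2 or between Kcnip2 and Kcna1, while each later gene of the 10 highest overlapped with the next in the order. The 15 accessory genes held 30.5% of the summed level per kilobase. The order depends on the length used: with the longest transcript in place of the exon union, 7 of these 10 genes were again among the 10 highest.

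**Figure D1:**
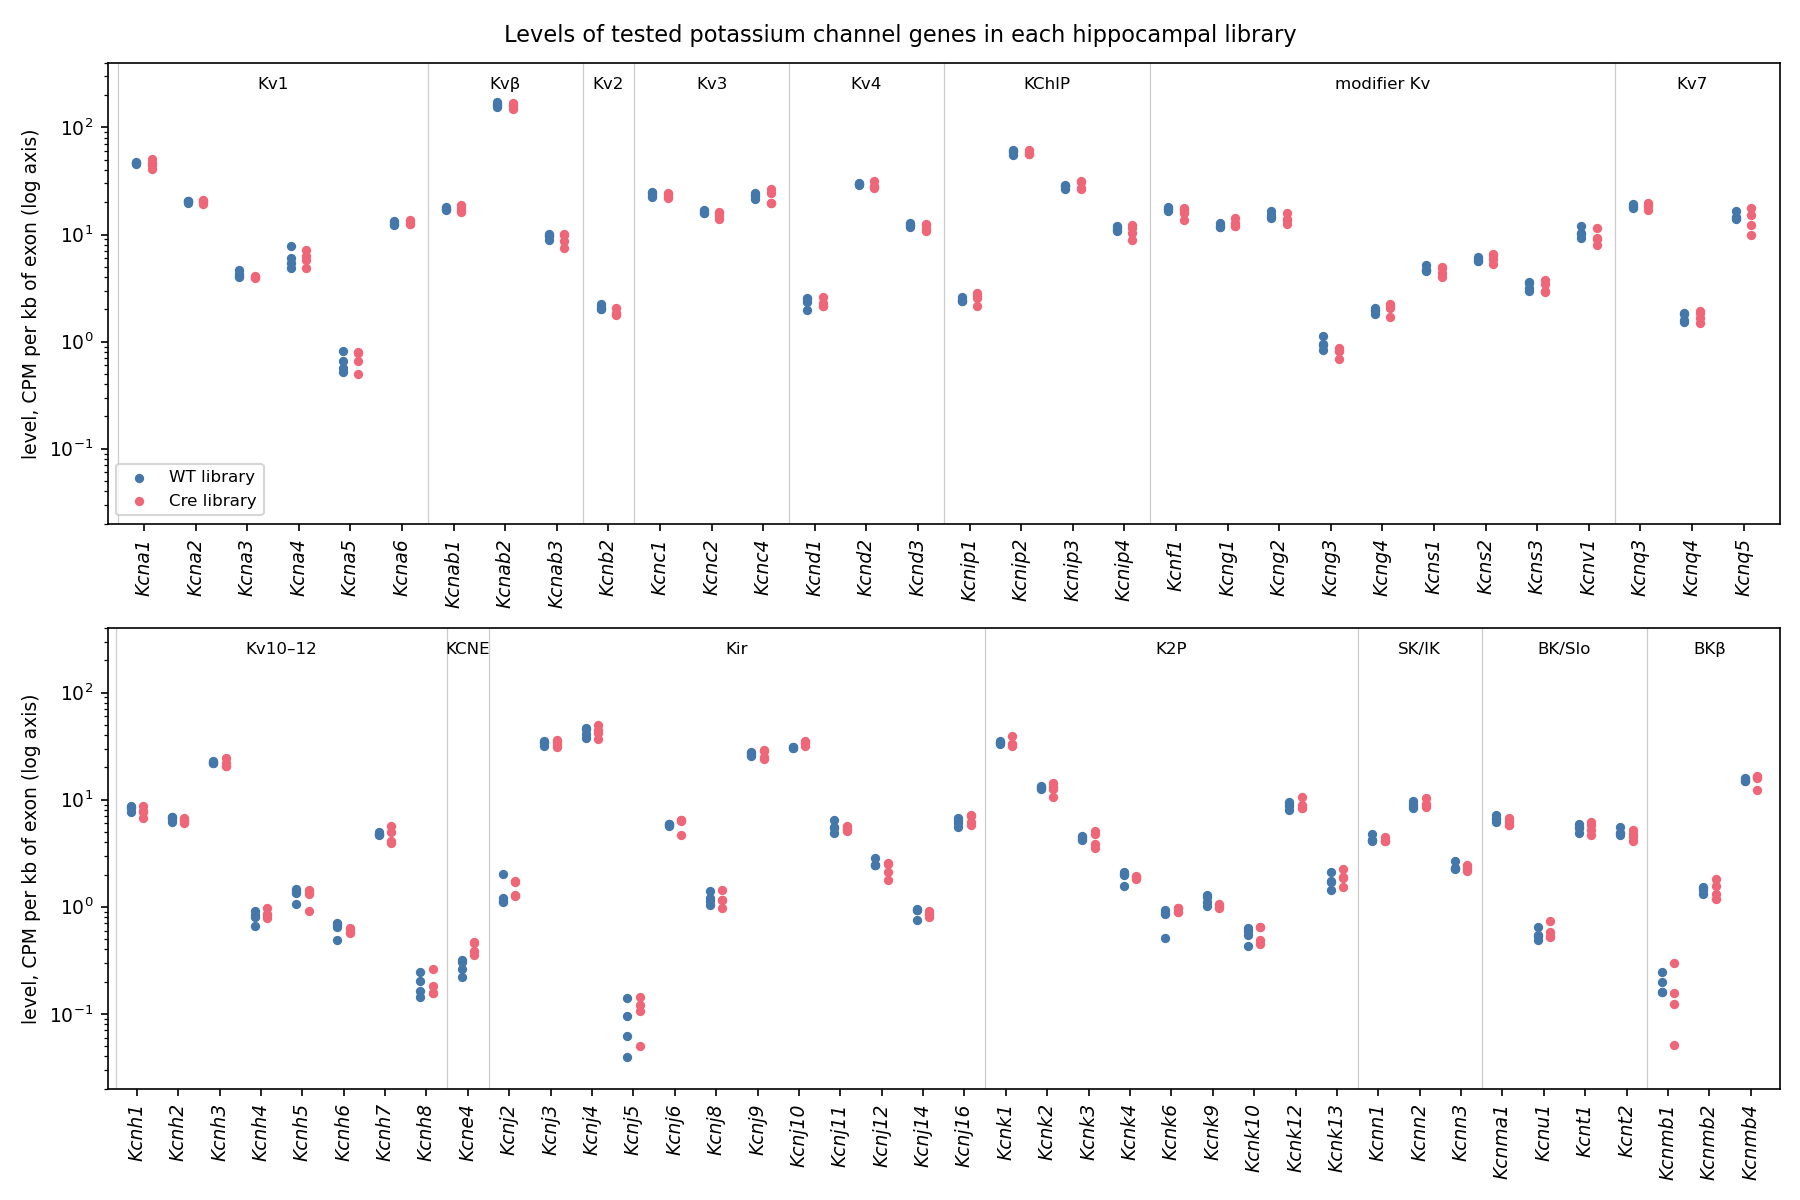
Level of 72 tested potassium channel genes in the 8 libraries, in CPM per kilobase of exon on a log axis, grouped by subunit role; each point is a library (blue WT, red Cre). Kcnab2 stands highest, near 160 CPM per kb, and the WT and Cre points overlap for every gene shown other than Kcnj10 and Kcne4.

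None of the 75 tested genes passed the test between Cre and WT after adjustment over all genes. With edgeR's quasi-likelihood test and Benjamini-Hochberg adjustment over 15859 genes, 0 of 75 passed an adjusted p of 0.05, where 5 genes of the whole table did (0.0315%, with 0.0252% higher and 0.00631% lower in Cre), and the smallest adjusted p among the potassium channel genes was 0.9995. DESeq2 and limma voom also called 0 of them. At an unadjusted p under 0.05 edgeR picked 4 of the 75 (5.33%), against 3.5% of all genes tested. Kcnj10 and Kcne4 were higher in Cre, the direction in which 2.05% of all genes lay past that limit, and Kcnb2 and Kcnk9 were lower, where 1.45% did. With DESeq2 the count at an unadjusted p under 0.05 was 3, and with limma voom 5.

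The intervals show how small a difference these libraries could hold. The standard error of the log2 fold change had a median of 0.0828 over the 75 genes, from 0.0362 to 0.404. In 47 of the 75 genes the whole 95% interval lay within 1.2-fold either way, and in 70 within 1.5-fold. The exceptions at 2-fold were 3 genes of low level, Kcne4, Kcnj5 and Kcnmb1. Only 8 genes had a fitted difference beyond 1.1-fold, and Kcne4 alone lay beyond 1.5-fold. Among all 4 genes with an unadjusted p under 0.05, only Kcnj10 stayed under it in each of the 15 alternative fits.

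**Figure D2:**
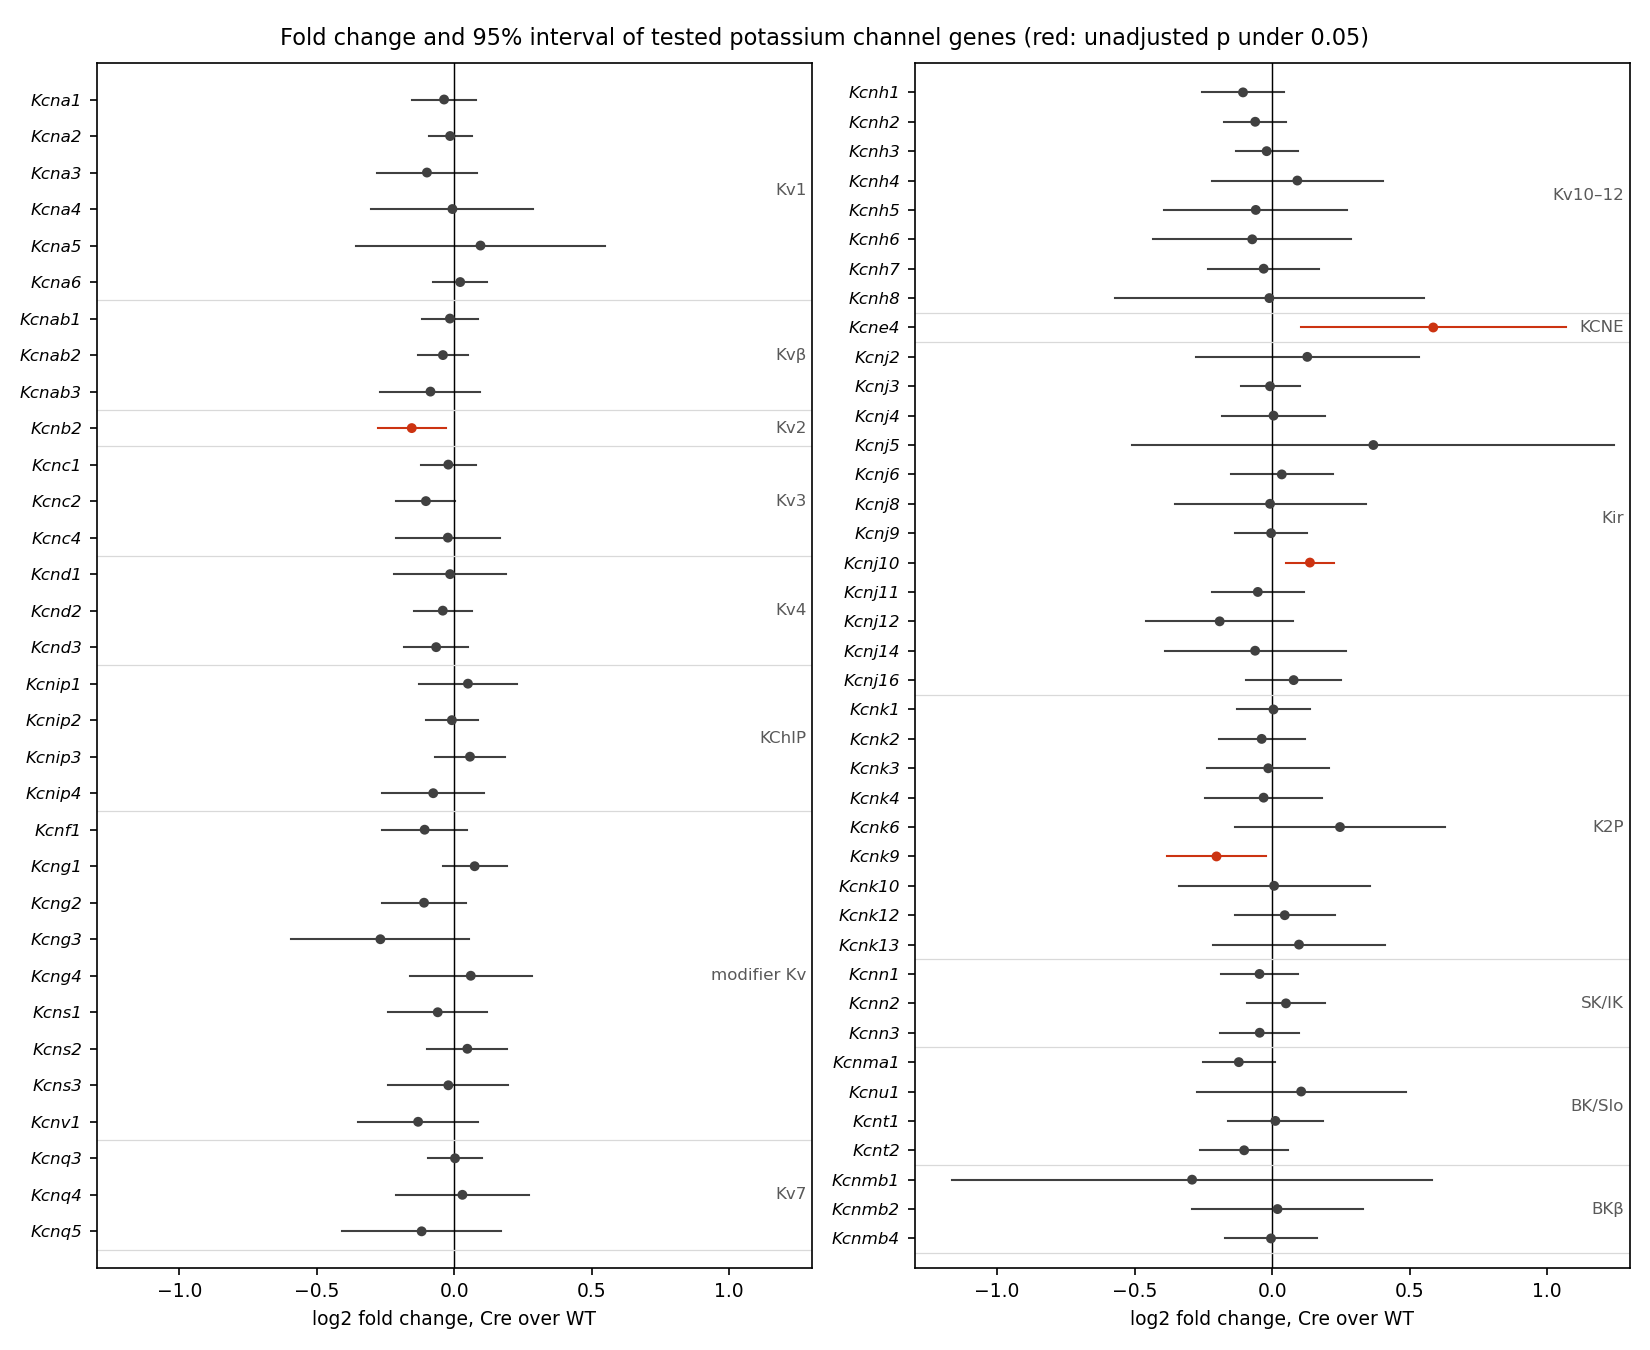
Log2 fold change of Cre over WT with its 95% interval for 72 of the tested genes, grouped by subunit role; red marks the 4 genes with an unadjusted p under 0.05. Most intervals are narrow and include 0, and the wide ones belong to genes of low level such as Kcnmb1, Kcnj5 and Kcne4.

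Among Kv1 genes, whose channels sit at axons and set the threshold for firing, 6 of 8 were tested and 0 called, with 4 of 6 log2 fold changes below 0 and a median of -0.01. Kcna1 made up 51.1% of the Kv1 level per kilobase. Its CPM were 223, 222, 229 and 218 in WT and 222, 241, 196 and 212 in Cre (log2 fold change -0.04, SE 0.05). The WT values lay inside the range of the Cre values. Kcna2, its usual partner in juxtaparanodal channels, had 243 ± 5.53 CPM in WT and 241 ± 7.38 in Cre (SD, n = 4), the smallest relative spread in Cre of all potassium channel genes at 10 CPM or more (3.07%). Kcna3 had the smallest p of the Kv1 genes: 8.16 ± 0.535 CPM in WT and 7.63 ± 0.15 in Cre (SD, n = 4; log2 fold change -0.10, SE 0.08). Kcna4, the Kv1 subunit that inactivates rapidly, varied most within WT among the potassium channel genes at 10 CPM or more. It had 37.8, 29.3, 26.1 and 23.3 CPM, a coefficient of variation of 21.5%.

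The Kv beta subunits, cytoplasmic proteins that bind Kv1 channels and can speed their inactivation, held 18.9% of the summed potassium channel level per kilobase in WT and 18.6% in Cre. All 3 had log2 fold changes below 0, from -0.09 to -0.02, and 0 were called. Kcnab2 counted 904, 872, 929 and 965 CPM in WT and 834, 892, 899 and 941 CPM in Cre, so the groups overlapped and only Cre replicate 1 lay below every WT library. Kcnab3 had 27.5 ± 1.54 CPM in WT. In Cre it had 21.5, 24.9, 28.2 and 28.9 CPM, with replicates 1 and 2 below the lowest WT library and replicates 3 and 4 near the highest.

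Kv2 genes encode the delayed rectifier clustered on neuronal somata, and 0 were called. Kcnb2 had 31.8, 30.8, 33.9 and 30.6 CPM in WT and 28.3, 27.5, 27.1 and 31.3 CPM in Cre. Of the Cre libraries of Kcnb2, 3 lay below all WT libraries and replicate 4 lay among them. Its log2 fold change was -0.15 (SE 0.06, 95% interval -0.28 to -0.03, unadjusted p = 0.0187 and adjusted p = 0.9995 in edgeR). An exact 2-sided permutation test over the 8 libraries gave p = 0.0857. Without WT replicate 3, the highest library, the log2 fold change was -0.12 (SE 0.06, unadjusted p = 0.0714 in edgeR).

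The electrically silent Kv subunits form no channel alone and join Kv2 subunits to change their gating. Of these 10 genes 9 were tested and 0 called, with 6 of 9 log2 fold changes below 0 and a median of -0.06. Kcnf1 was the highest, at 16.7 CPM per kb. Its CPM were 79.5, 82.5, 82.1 and 87.5 in WT and 64.9, 75.7, 85.5 and 81.4 in Cre, with Cre replicates 1 and 2 below the WT range and 3 and 4 within it. Kcng3 had the smallest p of the list: 3.23 ± 0.407 CPM in WT and 2.67 ± 0.258 in Cre (SD, n = 4), with a fitted log2 ratio of -0.27 (SE 0.15).

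Kv3 genes, whose fast channels support high firing rates in interneurons, were all 4 tested and 0 called. Kcnc1 had 224 ± 11.3 CPM in WT and 221 ± 10.6 in Cre (SD, n = 4). Kcnc2, a Kv3 gene of fast-spiking interneurons, had 113, 113, 121 and 119 CPM in WT and 106, 115, 113 and 99.8 CPM in Cre, with a fitted log2 ratio of -0.10 (SE 0.05, unadjusted p = 0.0581 in edgeR). Its groups overlapped. Interneuron markers such as Pvalb, Sst and Gad1 overlapped between the groups as well, with summed levels of 776.33 to 832.63 CPM in WT and 719.54 to 843.17 CPM in Cre.

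The 3 Kv4 genes, which carry the dendritic A-type current, all had log2 fold changes below 0, from -0.07 to -0.02, and 0 were called. Kcnd2, the main Kv4 gene here at 67.1% of the Kv4 level per kilobase, had 157, 153, 153 and 149 CPM in WT. Its Cre libraries had 140, 147, 143 and 164 CPM, 3 of them below the WT range and replicate 4 above it. Kcnd3 had 118 ± 4.34 CPM in WT and 113 ± 8.54 in Cre (SD, n = 4). Their KChIP partners, calcium sensors that bring Kv4 channels to the membrane, split evenly, with 2 of 4 below 0 and a median of 0.02. Kcnip2 had 205 ± 9.30 CPM in WT and 204 ± 8.48 in Cre. Kcnip3, also known as the transcriptional repressor DREAM, had 99.1 ± 3.89 and 103 ± 9.03 CPM (SD, n = 4), a log2 fold change of 0.06 (SE 0.06) that ran from 0.01 to 0.10 when a library was left out.

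Of the Kv7 genes, 4 of 5 were tested and 0 called. Kcnq3, a subunit of the M-channel of principal neurons, had 270 ± 9.21 CPM in WT and 270 ± 16.2 in Cre (SD, n = 4). Kcnq5, a further M-channel subunit, had 111, 107, 127 and 113 CPM in WT and 117, 135, 93.7 and 76.0 CPM in Cre. Its coefficient of variation in Cre, 24.5%, was the highest of all potassium channel genes at 10 CPM or more, and its Cre libraries lay on both sides of the WT range.

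Among the 8 Kv10 to Kv12 genes (the eag, erg and elk channels, with the phenylalanine codon in the signature), 7 had log2 fold changes below 0, with a median of -0.05, and 0 were called. Kcnh3, an elk gene of forebrain neurons, held 49.8% of the level per kilobase of this list and had 128 ± 2.48 CPM in WT and 126 ± 9.81 in Cre (SD, n = 4). Kcnh1, an eag gene, had 61.2 ± 3.04 and 56.9 ± 6.19 CPM, a log2 fold change of -0.11 (SE 0.07) that ran from -0.17 to -0.04 when a library was left out. Kcnh7, an erg gene, had 73.2, 76.4, 73.0 and 70.8 CPM in WT and 62.8, 60.2, 76.6 and 87.1 CPM in Cre. Its group means hardly differed, while the Cre libraries spread from below to above all WT libraries.

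Of the 15 Kir genes 12 were tested, 0 were called, and 6 log2 fold changes lay on each side of 0. Kcnj4, a strong inward rectifier of forebrain neurons, led the list at 43.0 CPM per kb and had 92.4 ± 9.31 CPM in WT and 92.8 ± 11.5 in Cre (SD, n = 4). The genes of the G protein-gated channels, Kcnj3, Kcnj6 and Kcnj9, which respond to GABA-B and adenosine receptors, had log2 fold changes of -0.01 (SE 0.05), 0.03 (SE 0.09) and -0.00 (SE 0.06). Kcnj6 had 45.4, 44.3, 45.1 and 43.7 CPM in WT. This was the smallest relative spread in WT of the potassium channel genes at 10 CPM or more (1.79%). Its Cre libraries had 49.7, 49.1, 35.8 and 48.6 CPM, with replicate 3 below and the others above all of WT.

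Kcnj10 encodes the inward rectifier of astrocytes and oligodendrocytes. It had 168, 169, 163 and 164 CPM in WT and 192, 185, 182 and 171 CPM in Cre. Every Cre library lay above every WT library, with Cre replicate 4 closest to WT. The means were 166 ± 3.10 and 182 ± 8.53 CPM (SD, n = 4), a log2 fold change of 0.14 (SE 0.04, 95% interval 0.05 to 0.23). The unadjusted p was 0.00545 and the adjusted p 0.9995 in edgeR, and the exact 2-sided permutation test gave p = 0.0286, the smallest it can give for 4 against 4. The gene lies at chr1:172341210-172374085 on the plus strand and shares no exon base with a gene on the opposite strand. Without Cre replicate 1 the log2 fold change was 0.11 (SE 0.04), and without WT replicate 1 and Cre replicate 1 it was 0.12 (SE 0.04).

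Astrocyte markers lay in the same direction as Kcnj10. Of 10 markers, such as Aqp4, Slc1a3 and Gja1, 9 had log2 fold changes above 0 (median 0.10, 0 called), and their summed level was 5158.8 to 5543.5 CPM in WT and 5555.4 to 6158.5 CPM in Cre. Microglia markers (10 of 10 above 0, 386.97 to 417.77 CPM in WT and 422.07 to 557.07 in Cre) and oligodendrocyte markers (10 of 10 above 0, 4076 to 4528.6 CPM and 4093.2 to 5252.6 CPM) did so too. No marker in these lists was at 0. Per 100 CPM of astrocyte markers, Kcnj10 had 2.95 to 3.24 CPM in WT and 3.09 to 3.29 CPM in Cre, and on that scale the groups overlapped. Most of the astrocyte sum was Slc1a2 (2974 ± 108 CPM in WT and 3210 ± 104 in Cre). Gfap had 789 CPM in Cre replicate 1 and 435 to 477 CPM in the other Cre libraries. The scale leaves out oligodendrocyte markers, so the part of each cell type in the Kcnj10 values was not tested. In bulk tissue, more cells of a type and more RNA per cell cannot be told apart. Kcnj16, whose product pairs with that of Kcnj10 in glia, had 24.4 ± 2.00 CPM in WT and 25.8 ± 2.76 in Cre (SD, n = 4), with overlapping groups. Kcnj9, which lies on the minus strand 11.9 kb away from Kcnj10, had 115 ± 4.80 and 115 ± 10.5 CPM.

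**Figure D3:**
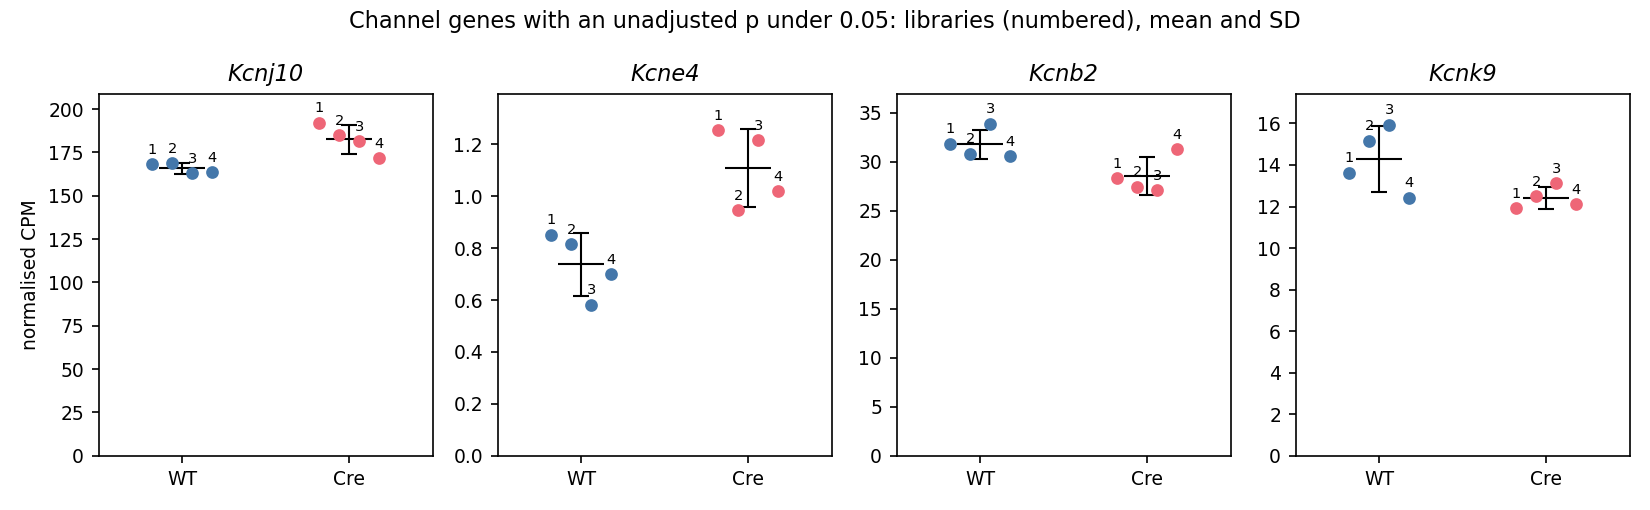
CPM of Kcnj10, Kcne4, Kcnb2 and Kcnk9 in each library (numbered points), with the mean and SD of each group of 4; the axes start at 0. Only Kcnj10 and Kcne4 have groups that do not overlap, and the Kcne4 values are near 1 CPM.

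Among K2P genes, 9 of 14 were tested and 0 called, with 4 of 9 log2 fold changes below 0. Kcnk1, which accounts for 51.3% of the K2P level per kilobase, had 78.5, 74.3, 74.9 and 77.1 CPM in WT and 70.3, 73.6, 74.0 and 87.9 CPM in Cre. All WT values lay between the lowest and the highest Cre value. Kcnk9, an acid-sensitive leak channel, had 13.6, 15.2, 15.9 and 12.4 CPM in WT and 11.9, 12.5, 13.1 and 12.1 CPM in Cre. The Cre libraries were all below WT replicates 1, 2 and 3 and spread around WT replicate 4. Its log2 fold change was -0.20 (SE 0.08, 95% interval -0.38 to -0.02, unadjusted p = 0.0309 and adjusted p = 0.9995 in edgeR), and the exact permutation test gave p = 0.0857. Without WT replicate 3 the log2 fold change was -0.15 (SE 0.08, unadjusted p = 0.11 in edgeR). Kcnk3, the closest relative of Kcnk9, had 17.4 ± 0.627 CPM in WT and 17.2 ± 2.99 in Cre (SD, n = 4), with a fitted log2 ratio of -0.01 (SE 0.10).

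Of the calcium-activated SK and IK genes 3 of 4 were tested and 0 called. Kcnn2, the main SK gene here, had 66.8 ± 4.71 CPM in WT and 69.1 ± 6.43 in Cre (SD, n = 4), with a fitted log2 ratio of 0.05 (SE 0.07). Kcnma1, the BK pore gene, had 111, 114, 123 and 104 CPM in WT and 113, 107, 97.7 and 98.1 CPM in Cre. Its groups overlapped, with a log2 fold change of -0.12 (SE 0.06, unadjusted p = 0.0674 in edgeR). The sodium-activated relatives Kcnt1 and Kcnt2 had log2 fold changes of 0.01 (SE 0.08) and -0.10 (SE 0.07). Kcnmb4, the neuronal BK beta subunit, held 90.3% of the BK beta level per kilobase and had 50.9 ± 1.98 CPM in WT. In Cre it had 41.1, 54.1, 53.0 and 54.8 CPM, with replicate 1 below and 3 libraries above the WT mean. Kcnmb1, the beta subunit of smooth muscle, was low, at 0.798 ± 0.176 CPM in WT and 0.661 ± 0.437 in Cre, and its log2 fold change of -0.29 had an SE of 0.40. Kcnmb1 lies inside Kcnip1 on the opposite strand but shares no exon base with it. The strand setting of the counting is not given in the sources used here.

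Only 1 of the 4 KCNE genes in the table, the single-pass subunits that modify Kv channels, was tested. Kcne4, which inhibits several Kv channels, had 0.852, 0.816, 0.581 and 0.699 CPM in WT and 1.26, 0.946, 1.22 and 1.02 CPM in Cre. No WT library reached the lowest Cre library. The log2 fold change was 0.59 (SE 0.22, 95% interval 0.10 to 1.07, unadjusted p = 0.0209 and adjusted p = 0.9995 in edgeR), and the exact permutation test gave p = 0.0286, the smallest possible. These levels rest on 14 to 34 counts per library. Without WT replicate 3, the lowest library, the log2 fold change was 0.49 (SE 0.24, unadjusted p = 0.0625 in edgeR), and without Cre replicate 1 it was 0.52 (SE 0.24, unadjusted p = 0.0502). The gene lies at chr1:78816758-78820028 on the plus strand. Kcnj10 and Kcne4 were the only tested genes whose groups did not overlap (2.67% of 75), against 2.31% of all genes tested. In both, Cre lay above WT, as it did for 1.29% of all genes, while Cre lay below WT without overlap for 0 of the 75 and for 1.03% of all genes. Endothelial and mural markers overlapped between the groups, at 120.26 to 149.68 against 130.98 to 157.45 CPM and at 164.95 to 216.11 against 168.23 to 190.84 CPM; their part in the Kcne4 values was not tested.

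Kcne2 and Kcnj13, which encode an accessory subunit and an inward rectifier of the choroid plexus epithelium, came almost entirely from WT replicate 1. Kcne2 had 224 counts there and 0 to 7 in every other library. Kcnj13 had 203 counts there, 17 in WT replicate 2 and 0 to 7 in each remaining library. Choroid plexus markers moved with them: 8 markers, among them Ttr and Enpp2, summed to 1598.5 CPM in WT replicate 1 and to 127.39 to 165.82 CPM in the other 7 libraries. Neither gene passed the filter on low counts, so neither was tested. Kcnj13 shares 49.1% of its exon bases with Gigyf2 on the opposite strand. Kcne1 had 0 counts in all WT libraries and 1 or 2 counts in each Cre library, below the level of 3 counts.

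**Figure D4:**
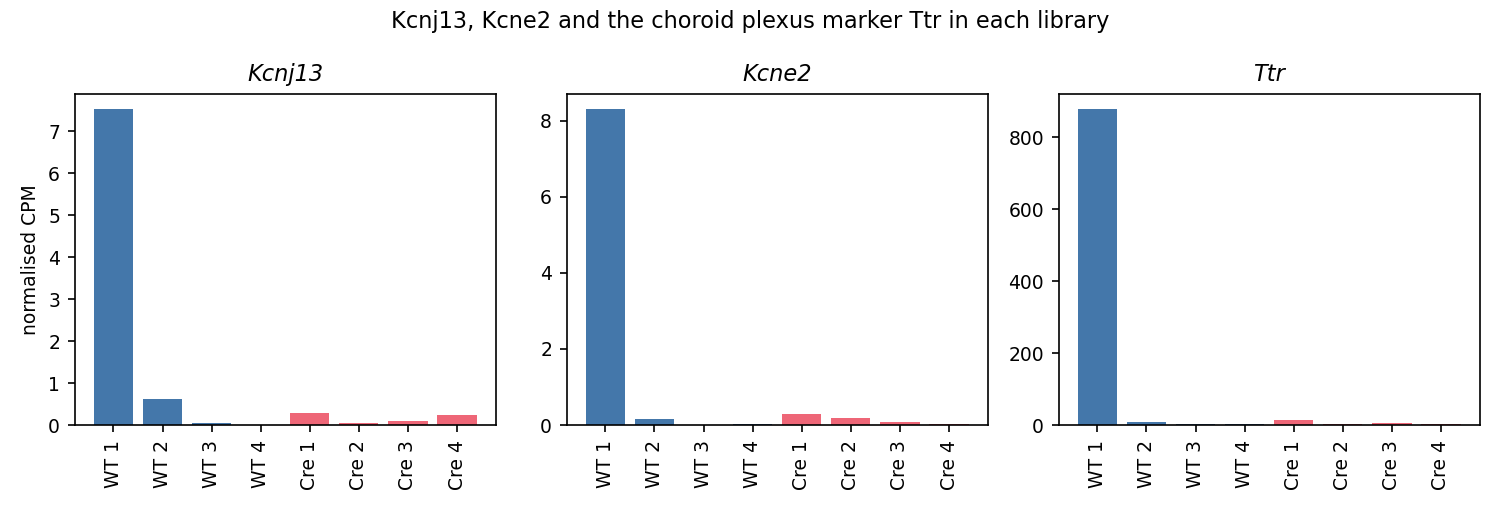
CPM of Kcnj13, Kcne2 and the choroid plexus marker Ttr in each of the 8 libraries, 1 bar per library on axes that start at 0 (blue WT, red Cre). All 3 genes are high in WT replicate 1, and no Cre library is high for any of them.

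More potassium channel genes lay below than above WT, by small amounts. Of the 75 tested genes 48 (64%) had a log2 fold change below 0, against 49.8% of all genes tested, and their median was -0.02, against 0.00 over all genes. The share was 41 of 64 among pore genes and 7 of 11 among accessory genes. It was larger among genes at 10 CPM or more, at 38 of 53 (71.7%, against 53.5% of all genes at that level), and smaller under 10 CPM, at 10 of 22 (45.5%, against 43.5%). This count depended on the libraries used, and most on Cre replicate 1. Without it 36 of 75 genes (48%) lay below 0, against 51.2% of all genes tested in that fit, and their median was 0.00. Without both WT replicate 1 and Cre replicate 1 the count was 38 (50.7%), against 51% of all genes tested. With any other single library left out, it ran from 42 of 76 (55.3%, without Cre replicate 2) to 53 of 76 (69.7%, without Cre replicate 4). The median deviation of the tested genes from their mean over all 8 libraries was -0.07 on the log2 scale in Cre replicate 1 and -0.02, -0.01 and 0.04 in Cre replicates 2, 3 and 4, against 0.00 to 0.03 in the WT libraries. Cre replicate 1 was also the library with the highest astrocyte, microglia and oligodendrocyte marker sums (6158.5, 557.07 and 5252.6 CPM). The part of these cells in the count was not tested.

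The libraries differed more from each other within Cre than within WT. Over the 53 genes at 10 CPM or more the coefficient of variation had a median of 4.53% in WT and 9.17% in Cre, while over all 9960 tested genes at that level it was 4.58% and 5.26%. It was larger in Cre for 43 of the 53 potassium channel genes (81.1%), against 59.7% of all genes. Leaving out each Cre library in turn gave medians of 7.55% to 8.37% for the potassium channel genes and 4.59% to 5.20% for all genes. Among the Cre libraries, replicate 1 was the lowest for 22 of the 53 potassium channel genes and replicate 3 for 15. Over all genes at that level, these replicates were the lowest for 33.7% and 23.4%. Replicate 4 was the highest for 25 of the 53 and replicate 2 for 16, against 29.0% and 24.0% of all genes at that level. The direction was not shared by all genes, as Kcnq5 (highest in Cre replicate 2 and lowest in replicate 4) and Kcnh7 (highest in replicate 4 and lowest in replicate 2) show. A wider spread in Cre was also seen for some cell type markers. Prox1 of neurons had 107 ± 7.44 CPM in WT and 113 ± 17.1 in Cre (SD, n = 4). Zbtb20 had 413 ± 20.8 and 433 ± 55.6 CPM, and Cnp of oligodendrocytes 263 ± 2.55 and 295 ± 43.6 CPM. The spread was narrower in Cre for others, such as Slc32a1 of interneurons (87.5 ± 4.90 and 88.7 ± 2.08 CPM). Endothelial Cldn5 is a further case (22.3 ± 4.22 and 23.1 ± 2.87 CPM). The difference in spread, and whether it exceeds that of other neuronal genes, was not tested.

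**Figure D5:**
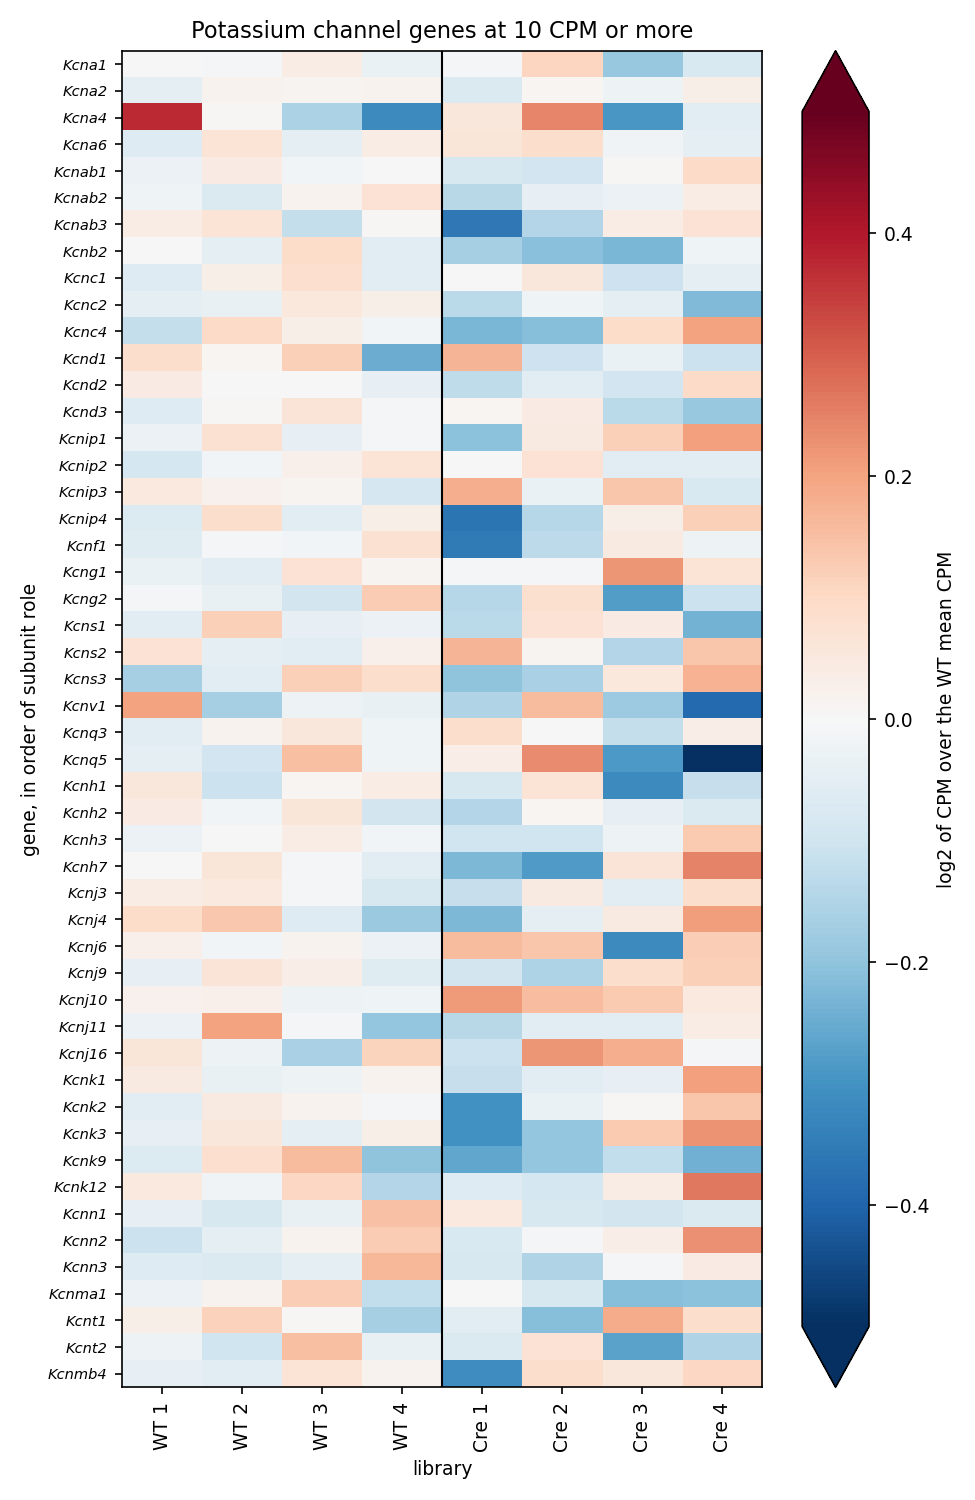
Log2 ratio of the CPM in each library to the WT mean for 50 potassium channel genes at 10 CPM or more (rows, in order of subunit role; columns, the 4 WT and 4 Cre libraries; red above, blue below, colours capped at 0.5 either way). The Cre columns are more strongly coloured than the WT columns, in both colours, and Kcnj10 is red in all 4 Cre columns.

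Genes of known channel partners and regulators were read in the same fit, as a list of 29 symbols. Of the 30 entries found, 27 were tested, 0 were called in edgeR and 0 had an unadjusted p under 0.05. Log2 fold changes below 0 numbered 17 (63%), against 64% of the potassium channel genes and 49.8% of all genes tested. The median over the 27 entries was -0.00. The smallest p belonged to Cntnap1, an axonal adhesion protein next to the node of Ranvier, at 314 ± 9.23 CPM in WT and 296 ± 16.8 in Cre (SD, n = 4), with a fitted log2 ratio of -0.08 (SE 0.04). Cntnap2 and Cntn2, which hold Kv1 channels at the juxtaparanode, had log2 fold changes of -0.09 (SE 0.05) and 0.10 (SE 0.06). Amigo1, a Kv2 partner, had -0.07 (SE 0.05), beside -0.15 for Kcnb2. The groups overlapped for all 4 genes.

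In the authors' deposited table of their own comparison, 81 of the 92 genes appear, and 4 of them have a p under 0.05. The authors' deposited table gives Kcnj10 a log2 fold change of 0.14 (p = 0.0107), Kcne4 0.59 (p = 0.0297), Kcnb2 -0.15 (p = 0.024) and Kcnk9 -0.20 (p = 0.0335); edgeR is the test tool that the processing notes name. After Benjamini-Hochberg adjustment of those p-values over the authors' deposited table, 0 of the potassium channel genes passed 0.05.

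Some of these genes share exon bases with a gene on the opposite strand, which matters where the counting did not use the strand. This held for 26 of the 92 genes and exceeded 10% of the exon bases in 6, among them Kcnj13 (49.1%), Kcna6 (39.6%), Kcnmb4 (31.5%), Kcnj3 (31.1%) and Kcnk2 (12.2%). Kcnab2 and Kcnk4 overlap a gene on their own strand. None of Kcnj10, Kcne4, Kcnb2 and Kcnk9 has such an overlap.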

How the data were processed

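The authors deposited raw whole-number counts for each gene symbol in each library, without normalization, and a table of their own comparison with log2 fold changes, a linear fold, abundances on a log2 and a linear score scale and p-values. The submitters' processing notes name STAR 2.6.1d, featureCounts, edgeR 3.11 and GRCm38; the annotation release, the strand setting and the adjustment of the deposited p-values were not given in the sources used here. Per the labels, poly(A) libraries were made with a directional kit and pooled in a single lane.

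From the counts, filterByExpr kept 15859 of 46078 genes (minimum count 10, minimum total 15). TMM factors ran from 0.988 to 1.01. The main test was edgeR's quasi-likelihood test (edgeR 4.0.16, R 4.3.3) of Cre against WT over all 8 libraries, 2-sided; p-values were adjusted by the Benjamini-Hochberg method over every gene tested (the script was tested on simulated data). For single genes an exact permutation test on log2 CPM was added (70 arrangements of the libraries, smallest p 0.0286). Alternatives were DESeq2 1.42.0, its size factors, limma voom (limma 3.58.1), robust dispersion, no filter, a replicate block and leaving out libraries. Lengths, overlaps and coding sequences came from GENCODE M21, where all 92 genes had 1 match. No replicate pair of a group was a repeat of the same library.

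Genes given with full statistics were those with an unadjusted p under 0.05, those whose groups do not overlap, and the smallest p and highest level per kilobase of each subunit list; some of these are not reported here, and others are named as examples chosen after their values were seen. The potassium channel genes and all lists were chosen with earlier results of these data known.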

Additional observations from a re-analysis of the deposited data

Results flagged for a closer look

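Each group of 4 libraries was searched for a library whose gap to the nearest other exceeds Dixon's critical share of the group's range for 4 values. This held in 11 of 150 gene and group combinations, where chance gives about 1 in 20. WT replicate 1 was low for Kcna2 (234.8 CPM, others 245.2 to 246.3) and Kcnk6 (2.111, others 3.571 to 3.855) and high for Kcnj2 (10.92, others 6.089 to 6.561). WT replicate 2 was high for Kcns1 (14.01, others 12.44 to 12.63) and Kcnj12 (7.859, others 6.728 to 6.813). WT replicate 3 was low for Kcnj14 (2.035, others 2.51 to 2.595). WT replicate 4 was high for the SK genes Kcnn1 (22.01, others 18.83 to 19.35) and Kcnn3 (27.94, others 23.69 to 24.09). In Cre, replicate 1 was high for Kcnn1 (20.59, others 18.66 to 18.91) and low for Kcnmb4 (41.13, others 53.03 to 54.79), and replicate 3 was low for the G protein-gated Kcnj6 (35.79, others 48.63 to 49.75).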

How the results depend on the processing

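The count of potassium channel genes past an adjusted p of 0.05 was 0 under every one of the 15 alternatives, and the count over all genes ran from 4 to 7. The replicate block called 6 genes in all and 0 potassium channel genes. Deviations of same-numbered WT and Cre libraries correlated at 0.203, -0.114, 0.0199 and 0.0212. Those of WT and Cre libraries with unlike numbers correlated at -0.179 to 0.184. Whether replicate numbers pair the libraries was not tested. The median log2 fold change ran from -0.0384 to 0.00056 and the count below 0 from 36 to 53 over the fits that leave out a library, and the count was 56 of 91 without the filter. An unadjusted p under 0.05 held in 15 of 15 alternatives for Kcnj10, 11 for Kcnb2 and Kcne4 and 9 for Kcnk9. Of the genes given with full statistics, 9 changed sign under an alternative. Their fitted log2 ratios over the fits that leave out a library ran from -0.0886 to 0.011 for Kcna1, -0.1419 to -0.0066 for Kcnab3, -0.0364 to 0.0153 for Kcnip2, -0.0733 to 0.0056 for Kcnh3, -0.0684 to 0.0736 for Kcnj4, -0.0682 to 0.043 for Kcnk1, -0.0133 to 0.095 for Kcnn2, -0.815 to 0.0271 for Kcnmb1 and -0.0415 to 0.0842 for Kcnmb4. Of the others, Kcna3 ran from -0.13 to -0.05, Kcnc2 from -0.13 to -0.06 and Kcnma1 from -0.17 to -0.08. Without WT replicate 1 and Cre replicate 1, Kcnab3 had 0.0054, Kcnip2 -0.039, Kcnj4 0.1055, Kcnk1 0.05768, Kcnmb1 -0.8986 and Kcnmb4 0.0711. Kcnk1 had -0.0001978 with limma voom and -7.31e-05 with the replicate block. The cause was not tested. Counts of under 100 over 8 libraries limit what can be said of 15 untested genes.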
